A study of Homo sapiens with 2 samples.

Results

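The proteasome genes are the genes for the subunits of the proteasome and for the proteins that assemble, activate or inhibit it. They were taken by symbol, PSM followed by one of the letters A to G and a number, among the 13924 genes for which the authors deposited FPKM (fragments per kilobase of gene, scaled to the size of the library). The immunoproteasome genes PSMB8, PSMB9 and PSMB10 were set apart, which left 43 genes. PSMA8 and PSMB11, the testis and thymus subunits, had 0 counts in both libraries and no FPKM value, so neither belongs to the 43.

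The proteasome is the protease that degrades most proteins marked with ubiquitin in the cytosol and nucleus. Its 20S core is a barrel of alpha and beta rings that holds the cutting sites inside, and the 19S particle on its ends binds the ubiquitin chain, removes it and threads the unfolded protein in with a ring of ATPases. Dedicated assembly factors build both particles, and other activators can replace the 19S particle on the ends of the barrel.

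Gene expression was measured in HEL, a human erythroleukemia cell line. The cells were grown for 24 h with L1, a derivative of diindolylmethane, at 1 µM or with 0.5% DMSO, the vehicle, and 1 library was sequenced per condition. Both groups carry the genotype label WT. The libraries held 32556872 counts for DMSO and 27135647 for L1. All 8 erythroid and megakaryocytic markers examined had counts in both libraries, GATA1 with 6469 and 5923 among them, while the T cell markers CD3D and CD3E, the B cell marker MS4A1 and the epithelial markers EPCAM and KRT5 had 0. Other markers of these cells and of stroma had few counts, in DMSO and L1 113 and 60 for CD79A, 57 and 55 for CD2, 11 and 17 for COL3A1, 2 and 5 for CD3G, 0 and 5 for COL1A1 and 0 and 2 for COL1A2. With 1 library per condition no spread between cultures was measured, no test was possible, and every difference below lacks a replicate check. Values are given as the log2 ratio of counts, L1 over DMSO, after scaling by the TMM method of edgeR, with an exact 95% interval (Clopper-Pearson) that covers counting error only. Fewer cells and less RNA per cell cannot be told apart in such bulk libraries.

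Proteasome genes were higher in the L1 library as a group, by a small amount each. The median log2 ratio of the 43 genes was 0.29, a 1.22-fold difference, and the middle 50% of them lay between 0.16 and 0.45. Over all 13924 genes the median was -0.02 and the middle 50% lay between -0.26 and 0.21. The log2 ratio was above 0 for 37 of the 43 genes, against 47.3% of all genes, and below 0 for 6, against 52.7%. The whole counting interval was above 0 for 36 of the 43 (83.7%), against 28.5% of all genes. It was below 0 for 3, PSMA6, PSMG2 and PSMG3, against 33.6% of all genes. With scaling to total counts or to the upper quartile the interval of 1 of these, PSMG2, stayed below 0. The interval of the remaining 4, PSMD5, PSMD9, PSMF1 and PSMG4, included 0. The proteasome genes are well counted, and among the 6476 genes with at least 1000 counts in the higher library 34.0% had a whole interval above 0 and the median was -0.03. The difference was modest in size. The whole interval lay above a log2 ratio of 0.32 for 18 of the 43 genes, against 8.78% of all genes, and below -0.32 for 0, against 9.94%. Only PSME3 was at least 2-fold higher, a class that held 2.92% of all genes, and no proteasome gene was at least 2-fold lower, against 2.59%. The 43 genes together took 173829 counts under DMSO and 192964 under L1, which gives a log2 ratio of 0.36 (0.35 to 0.37), or 0.33 without PSME3.

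**Figure D1:**
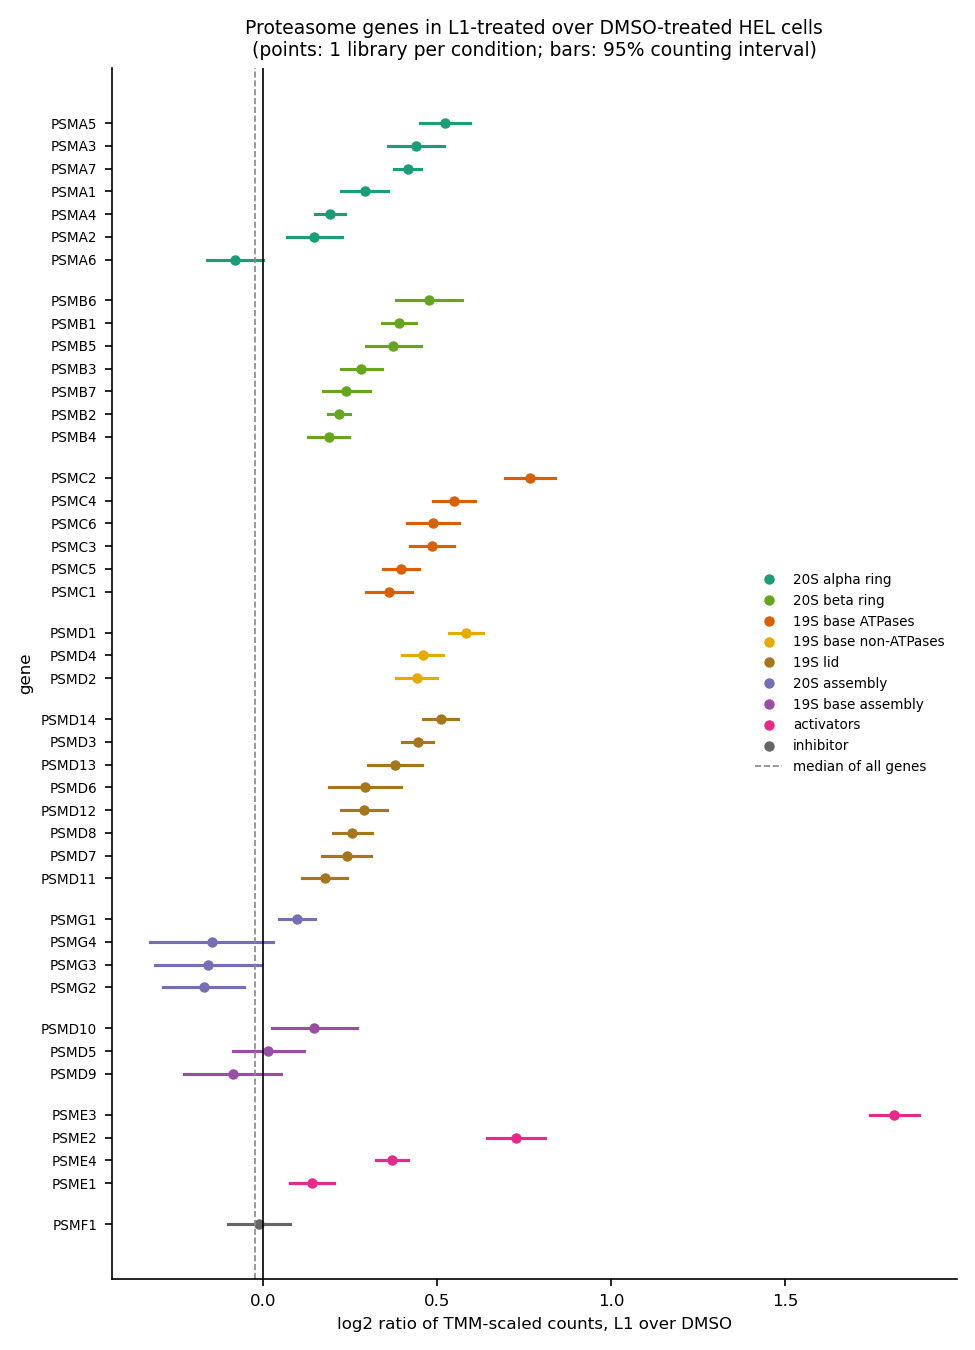
Log2 ratio of TMM-scaled counts, L1 over DMSO (x axis), for each of the 43 proteasome genes (y axis), grouped by role; points are 1 library against 1 library and bars are exact 95% counting intervals. All 17 subunits of the 19S particle lie to the right of 0, PSME3 stands alone at 1.81, and the assembly factors lie between -0.17 and 0.15.

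The groups differed by role. The 31 subunits of the 20S core and the 19S particle had a median of 0.38 and ran from -0.08 for PSMA6 to 0.77 for PSMC2. Of these 31, 30 were above 0, against 47.3% of all genes. The 17 subunits of the 19S particle had a median of 0.44 and the 14 of the 20S core one of 0.29. The 7 assembly factors among the 43 genes had a median of -0.09. Of these, 3 were above 0 and 4 below, near the shares of all genes, 47.3% and 52.7%. POMP and PAAF1, assembly factors outside the symbol rule, were at 0.62 and 0.30.

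Promoter sequences were examined because the subunit genes lay on the same side together although they are scattered over the genome. The 43 genes lie on 17 chromosomes, with at most 7 on any one, and the only neighbours within a short distance were PSME1 and PSME2, 4.4 kb apart on chromosome 14. RefSeq (GRCh38.p14) gave a promoter, 250 bases before to 50 after the start, for 37 of the 43 genes. Shown are the promoter of PSME3, the gene with the largest ratio, of PSMC2, the subunit with the largest, of PSMD3, which holds both motifs described here, and of PSMG2, the gene with the lowest ratio. Each is printed on its own strand from 5′ to 3′, and capitals mark CCAAT and TGACNNNGC, read on either strand, so that ATTGG marks a CCAAT of the other strand.
PSME3 (chr17:42833147-42833446, plus strand): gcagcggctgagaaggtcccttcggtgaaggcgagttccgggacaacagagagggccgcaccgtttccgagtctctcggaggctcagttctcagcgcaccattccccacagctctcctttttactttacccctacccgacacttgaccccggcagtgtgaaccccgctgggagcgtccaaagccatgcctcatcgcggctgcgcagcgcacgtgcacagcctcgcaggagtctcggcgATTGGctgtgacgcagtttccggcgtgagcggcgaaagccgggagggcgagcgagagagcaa
PSMC2 (chr7:103347393-103347692, plus strand): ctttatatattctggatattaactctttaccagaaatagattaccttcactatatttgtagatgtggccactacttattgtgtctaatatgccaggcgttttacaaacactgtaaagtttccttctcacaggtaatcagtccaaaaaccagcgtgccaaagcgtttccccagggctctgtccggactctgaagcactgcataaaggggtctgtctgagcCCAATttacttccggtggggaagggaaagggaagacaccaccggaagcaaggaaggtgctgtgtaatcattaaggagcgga
PSMD3 (chr17:39980557-39980856, plus strand): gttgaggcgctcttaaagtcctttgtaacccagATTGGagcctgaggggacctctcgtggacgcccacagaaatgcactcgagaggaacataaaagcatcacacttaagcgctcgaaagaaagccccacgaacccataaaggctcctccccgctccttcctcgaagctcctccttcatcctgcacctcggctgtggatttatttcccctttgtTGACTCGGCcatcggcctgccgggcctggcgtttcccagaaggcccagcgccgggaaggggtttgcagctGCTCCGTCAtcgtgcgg
PSMG2 (chr18:12658488-12658787, plus strand): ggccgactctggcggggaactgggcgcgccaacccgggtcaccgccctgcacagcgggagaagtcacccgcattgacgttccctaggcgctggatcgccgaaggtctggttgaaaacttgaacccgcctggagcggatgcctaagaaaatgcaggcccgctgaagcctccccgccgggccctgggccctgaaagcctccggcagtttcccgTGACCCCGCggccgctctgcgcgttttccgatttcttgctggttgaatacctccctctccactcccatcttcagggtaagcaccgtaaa
The windows of PSME3, PSMC2 and PSMG2 lie inside the longer gene intervals that GENCODE release 29 gives, and RefSeq and GENCODE place the start differently there.

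TGACNNNGC, the core of the antioxidant response element that NRF1 and its relatives bind, occurred in 12 of the 37 promoters (32.4%). It occurred in 13.6% of 27305 RefSeq promoters of the same length and in 15.4% of the 9986 promoters of genes with an FPKM value. The median log2 ratio was 0.286 for the 12 genes with these letters and 0.292 for the other 25. The 12 mix roles, as they include the assembly factors PSMD5, PSMD9, PSMG1 and PSMG2. Their core subunits, PSMB3, PSMC4, PSMD1, PSMD3 and PSMD12, lay between 0.28 and 0.58. Whether the letters go with the ratio within a role was not tested. PSMD3 held the letters 37 bases before the start and again after it. PSMG2, at the low end of the ratios, held them 39 bases before the start. CCAAT, the box bound by NF-Y, was in 17 of the 37 (45.9%), against 35.7% of all promoters and 37.4% of those of genes with an FPKM value. The median was 0.37 for the 17 genes with CCAAT and 0.24 for the other 20. These sets differ in role too. The 20 hold the low genes PSMG2, PSMG4, PSMD5, PSMD9 and PSMF1, and also the core subunit PSMA6 at -0.08. The assembly factors PSMG1 and PSMD10 are among the 17. CCAAT began 31 bases before the start of PSMC2, 12 before that of PSME3 and 217 before that of PSMD3. The ER stress response element, CCAAT and CCACG with 9 bases between them, was in 0 of the 37, and so was the heat shock element, GAA, TTC and GAA with NN between them, while these letters were in 0.14% and 0.3% of the promoters of genes with an FPKM value. TGATGNAAN, the C/EBP-ATF response element, was in 1 of the 37 (2.70%), that of PSMF1, against 3.67% of all promoters and 1.69% of those of genes with an FPKM value. All motifs were searched on both strands. A match or its absence describes these letters in this window only.

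The alpha ring forms the gated outer ends of the 20S barrel. Its 7 measured subunits had a median log2 ratio of 0.29, and 6 were higher in L1. PSMA5 (ENSG00000143106, chromosome 1, 109399031 to 109426427) had 2911 counts under DMSO and 3607 under L1, and 16.0 and 22.9 FPKM, a log2 ratio of 0.52 (0.45 to 0.59). PSMA3 followed at 0.44 (0.36 to 0.52) and PSMA7 at 0.41 (0.38 to 0.45). PSMA7 had the highest FPKM of all 43 genes, 174 in DMSO and 232 in L1. PSMA1 was at 0.29, PSMA4 at 0.19 and PSMA2 at 0.15. PSMA6 (ENSG00000100902, chromosome 14, 35278633 to 35317493) was the only core subunit with fewer scaled counts in L1, with 2855 counts under DMSO and 2328 under L1, 13.8 and 13.05 FPKM, and a log2 ratio of -0.08 (-0.16 to -0.0019). Its interval ended next to 0.

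The alpha ring genes PSMA2 and PSMA6 each share exons on their own strand with a longer gene that reads through into a neighbour, and how reads over both were counted is not given in the sources used here. The partner of PSMA2 (ENSG00000256646) had 34 counts under DMSO and 482 under L1. Summed with it, PSMA2 had 2772 and 3098 counts and a log2 ratio of 0.37 (0.30 to 0.45) in place of 0.15 (0.07 to 0.23). The partner of PSMA6 (ENSG00000258790) had 213 and 88 counts, and the sum gave -0.13. The value of PSMA2 therefore depended on where these reads were placed, while PSMA6 was below 0 either way.

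The beta ring carries the cutting sites. All 7 measured subunits were higher in L1, within a narrow range from 0.19 for PSMB4 to 0.48 for PSMB6, with a median of 0.28. PSMB5, the chymotrypsin-like subunit and the main target of bortezomib, had 2473 counts under DMSO and 2764 under L1, and 50.2 and 65.1 FPKM, a log2 ratio of 0.37 (0.29 to 0.45). PSMB6, the caspase-like subunit, had 1676 and 2011 counts and 36.4 and 50.7 FPKM, a log2 ratio of 0.48 (0.38 to 0.57). PSMB7, the trypsin-like subunit, had 3575 and 3639 counts and 62.9 and 74.2 FPKM, a log2 ratio of 0.24 (0.17 to 0.31). The cutting subunits thus held both the highest ratio of the ring and one near its low end. PSMB4, the lowest, had 4926 and 4840 counts and 72.9 and 83.1 FPKM (interval 0.13 to 0.25). Of the other subunits, which only build the ring, PSMB1 was at 0.39, PSMB3 at 0.28 and PSMB2, the most counted of the 43 genes with 16313 and 16370 counts, at 0.22.

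The immunoproteasome subunits, which replace the cutting subunits in cells exposed to interferon, differed little between the libraries. PSMB8 was at -0.01, PSMB9 at 0.00 and PSMB10 at -0.11, and all 3 intervals included 0. The FPKM of PSMB5 over that of PSMB8 was 1.48 in DMSO and 1.93 in L1. That of PSMB6 over PSMB9 was 1.45 and 2.02, and that of PSMB7 over PSMB10 was 3.20 and 4.08. By counts, with no regard to length, PSMB5 over PSMB8 was 0.66 and 0.86, and PSMB6 over PSMB9 was 0.63 and 0.87. For PSMB7 over PSMB10 the counts gave 3.52 and 4.49. Which of PSMB5 and PSMB8, or of PSMB6 and PSMB9, stood higher thus depended on the length used. By either measure the constitutive subunit of each pair made up more of the pair in L1 than in DMSO.

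The base of the 19S particle holds 6 ATPases, which unfold the substrate and open the alpha ring. All 6 were higher in L1, with a median log2 ratio of 0.49. PSMC2 (ENSG00000161057, chromosome 7, 103344254 to 103369395) had 2608 counts under DMSO and 3829 under L1, and 9.50 and 16.2 FPKM. Its log2 ratio of 0.77 (0.69 to 0.84), a 1.70-fold difference, was the largest of the 31 core subunits, and its exons overlap no other gene. PSMC4 had 3929 and 4954 counts, a log2 ratio of 0.55 (0.49 to 0.61). PSMC6 was at 0.49, PSMC3 at 0.49 and PSMC5 at 0.40. PSMC1 was the lowest with 3607 and 3996 counts, 18.5 and 23.8 FPKM and a log2 ratio of 0.36 (0.30 to 0.43), and it is also the least certain of the 6. Of its 31-base words 85.7% also occur in transcripts of other genes, mainly NRDE2 on the opposite strand, with 1073 counts under DMSO and 608 under L1, and the pseudogene PSMC1P1, with 183 and 222. Summed with the genes that overlap its exons on either strand, PSMC1 came to 0.19.

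The other subunits of the base hold the particle together and bind substrates. PSMD1, a scaffold, had 6217 counts under DMSO and 8034 under L1, and 12.4 and 18.5 FPKM, a log2 ratio of 0.58 (0.53 to 0.63). PSMD2, on which shuttle proteins dock, had 4361 and 5109 counts and 27.7 and 37.6 FPKM, a log2 ratio of 0.44 (0.38 to 0.50). The 3 genes lay close together, with PSMD4, a ubiquitin receptor, at 0.46. ADRM1, the other intrinsic ubiquitin receptor, lies outside the symbol rule and was at 0.49, with 4733 and 5736 counts.

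The lid removes the ubiquitin chain. All 8 lid genes among the 43 were higher in L1, with a median of 0.29 and a range from 0.18 for PSMD11 to 0.51 for PSMD14. PSMD14, the metalloprotease that cuts off the chain, had 5718 counts under DMSO and 7025 under L1, and 24.6 and 35.04 FPKM (interval 0.46 to 0.56). PSMD11, at the other end, had 3988 and 3889 counts and 17.7 and 20.02 FPKM (interval 0.11 to 0.24). PSMD7, the inactive partner of PSMD14, had 3232 and 3293 counts, a log2 ratio of 0.24 (0.17 to 0.31). The scaffold subunits PSMD3, PSMD13, PSMD6, PSMD12 and PSMD8 lay between 0.26 and 0.44, PSMD3 being the highest with 7745 and 9087 counts. SEM1, a small lid subunit outside the symbol rule, was at 0.29. The median of the lid genes was below that of the ATPases, though the ranges overlapped.

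The assembly factors bind subunits on the way to the finished particle and then leave. PSMG1 and PSMG2 form one dimer that helps to build the alpha ring, and PSMG3 and PSMG4 form another. PSMG2 (ENSG00000128789, chromosome 18, 12658043 to 12725740) had 1407 counts under DMSO and 1078 under L1, and 3.54 and 3.15 FPKM, a log2 ratio of -0.17 (-0.29 to -0.06), the lowest of the 43. PSMG3 had 807 and 624 counts and 12.9 and 11.5 FPKM, a log2 ratio of -0.16 (-0.31 to -0.0054). PSMG4 had 609 and 474 counts and 1.84 and 1.66 FPKM, a log2 ratio of -0.15 (-0.32 to 0.03). PSMG1 did not share this direction, with 6398 and 5903 counts, 93.5 and 100.02 FPKM and a log2 ratio of 0.10 (0.05 to 0.15). These 4 genes lay inside the middle 50% of all genes. PSMG2, PSMG3 and PSMG4 also overlap genes of the opposite strand. Summed with those, PSMG2 came to -0.09 (-0.17 to -0.0001), PSMG3 to -0.11 (-0.26 to 0.04) and PSMG4 to -0.19 (-0.29 to -0.10), so that the interval of PSMG3 then included 0 and that of PSMG4 no longer did. The chaperones of the 19S base that the symbol rule took, each of which holds particular ATPases, were similar. PSMD10 (gankyrin) had 1135 and 1084 counts and 14.9 and 16.5 FPKM, a log2 ratio of 0.15 (0.03 to 0.27). PSMD9 had 956 and 776 counts and 3.43 and 3.23 FPKM, a log2 ratio of -0.09 (-0.23 to 0.05). PSMD5 was at 0.01, and the intervals of PSMD5 and PSMD9 included 0. POMP, which is needed to complete the 20S core and is degraded by it, falls outside the symbol rule and did not share this level. It had 5249 and 6969 counts and a log2 ratio of 0.62 (0.57 to 0.67). PAAF1, a 19S base chaperone also outside the rule, had 902 and 960 counts and a log2 ratio of 0.30 (0.17 to 0.44). The low level of the assembly factors thus covers only those that the rule took.

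The activators spread most. They bind the ends of the 20S core in place of the 19S particle. PSME3 (ENSG00000131467, chromosome 17, 42824385 to 42843758) codes for the gamma subunit of PA28, a nuclear activator known for the degradation of certain proteins without ubiquitin. It had 2191 counts under DMSO and 6641 under L1, and 13.4 and 47.0 FPKM. The log2 ratio of 1.81 (1.74 to 1.88), a 3.51-fold difference, stood at place 94 from the top among 13924 genes. PSME3 shares 300 exon bases with BECN1 on the opposite strand, and BECN1 had 1974 and 1907 counts. The sum of both genes, 4165 and 8548 counts, still gave a log2 ratio with an interval of 1.20 to 1.30. PSME2 and PSME1 code for the partners of the cytosolic PA28, which is induced by interferon and acts in the supply of peptides for antigen presentation. PSME2 had 2034 and 2903 counts and 17.9 and 29.6 FPKM, a log2 ratio of 0.73 (0.64 to 0.81). PSME1 had 4264 and 4055 counts and 75.5 and 83.3 FPKM, a log2 ratio of 0.14 (0.08 to 0.20). The FPKM of PSME1 was 4.23 times that of PSME2 in DMSO and 2.82 times in L1, so the neighbouring genes of this complex were not shifted by the same amount. PSME2 overlaps RNF31 on the opposite strand, and summed with its overlapping genes it came to 0.51. PSME4, a large nuclear activator, had 6970 and 7772 counts, a log2 ratio of 0.37 (0.32 to 0.42). PSMF1, which inhibits the 20S core in the test tube, had 2232 and 1911 counts and 6.78 and 6.73 FPKM, a log2 ratio of -0.01 (-0.10 to 0.08).

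**Figure D2:**
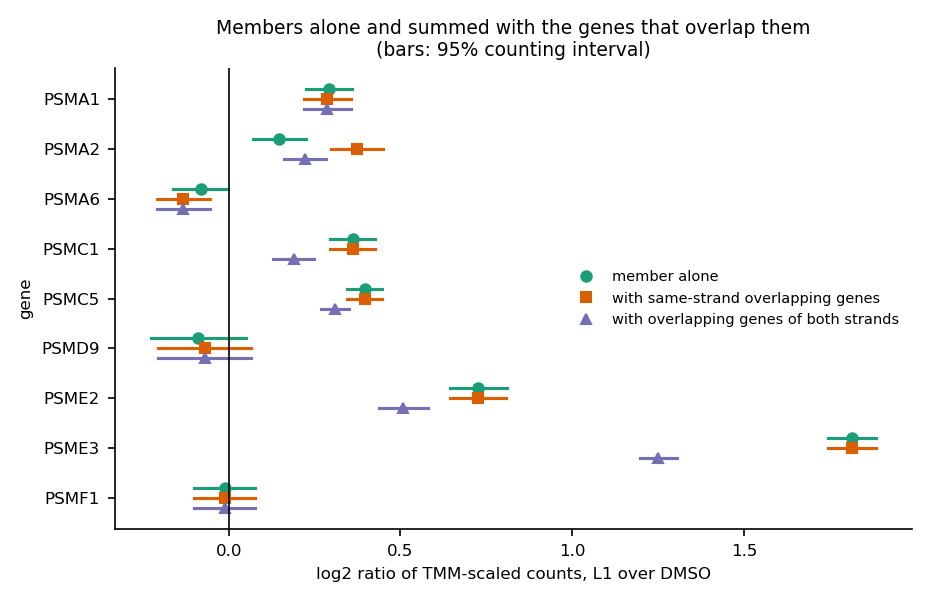
Log2 ratio of TMM-scaled counts, L1 over DMSO (x axis), for 9 proteasome genes (y axis) alone (circles), summed with overlapping genes of their strand (squares) and summed with overlapping genes of both strands (triangles); bars are exact 95% counting intervals. PSMA2 goes from 0.15 to 0.37 with its same-strand partner, and PSME3 from 1.81 to between 1.20 and 1.30 with BECN1, still the largest of the 9.

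Overlap with other genes touched 20 of the 43 genes by their exons in GENCODE release 29, and 6 of these overlap a gene of their own strand. The 23 genes with no overlap were all higher in L1, against 47.3% of all genes, with a median log2 ratio of 0.39. The 28 genes that share fewer than 10% of their 31-base words with other genes had a median of 0.33, and 27 of them were higher. Both medians were above that of all 43. Role and overlap are mixed here, as the genes below 0, PSMA6, PSMG2, PSMG3, PSMG4, PSMD9 and PSMF1, all overlap another gene. The 31 core subunits, overlapping or not, had a median of 0.38.

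Levels between proteasome genes were compared per length, as FPKM. Over the 43 genes the median FPKM was 23.3 in DMSO and 35.04 in L1. These medians fall on different genes, PSMA3 and PSMD14, and their ratio is not the difference per gene, whose median was 1.22-fold. Single genes ran from 1.84 for PSMG4 to 174 for PSMA7 in DMSO. The order of the genes was nearly the same in both libraries, with a Spearman correlation of 0.97 across the 43 genes, which share both libraries. Subunits that stand in equal numbers in the particle differed widely in FPKM. In the alpha ring the highest, PSMA7, was 16.9 times the lowest, PSMA2, in DMSO and 20.3 times in L1. In the beta ring these values were 3.47 and 3.03. The FPKM rest on a gene length that matches the summed exons of GENCODE release 29 within 10% for 35 of the 43 genes, and the summed exons were a median of 1.66 times as long as the longest coding transcript. With the length of the longest coding transcript in its place the alpha ring spanned 12.4-fold in DMSO and 11.5-fold in L1. The lowest gene was then PSMA5 and no longer PSMA2, whose FPKM rest on a length 1.56 times its summed exons. For PSMG2, PSMD1 and PSMC2 the length behind the FPKM was 3.70, 3.03 and 2.42 times the summed exons, which lowers their FPKM by as much, while their log2 ratios do not depend on length.

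**Figure D3:**
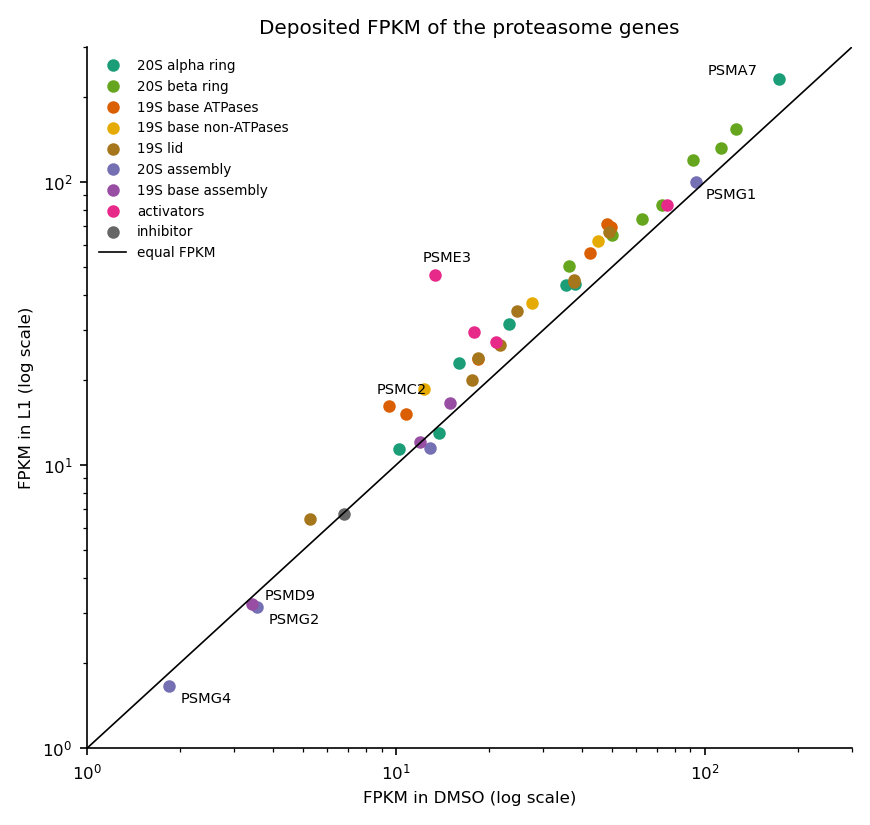
Deposited FPKM of the 43 proteasome genes in DMSO (x axis, log scale) and in L1 (y axis, log scale), 1 point a gene, coloured by role; the line marks equal FPKM. Most points lie a little above the line, and PSME3 lies far above it at 13.4 and 47.0. The 6 genes with a log2 ratio below 0 lie just below the line. Of these, PSMG4, PSMD9, PSMG2 and PSMF1 are among the lowest in FPKM.

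Other genes of the ubiquitin and proteasome pathway and other large complexes are set beside the 43 genes, from lists written from general knowledge. Among 12 other proteasome factors, which include POMP, ADRM1 and SEM1, 11 were higher in L1, with a median log2 ratio of 0.24. The whole interval was above 0 for 10 of them and below 0 for 0, against 28.5% and 33.6% of all genes. The deubiquitinase USP14 was at 0.30 and UCHL5 at 0.11, while ZFAND5, which stimulates the proteasome, was at -0.07. The 6 genes of ubiquitin and of the E1 enzymes that activate it had a median of 0.18, with UBB the highest at 0.24. The 6 ubiquitin shuttles, which carry chains to the 19S particle, fell on both sides, from -0.22 for NUB1 to 0.36 for RAD23B, with a median of 0.02. VCP, the ATPase that extracts ubiquitinated proteins ahead of the proteasome, had 6970 counts under DMSO and 8509 under L1, a log2 ratio of 0.50 (0.46 to 0.55). Its list of 10 had a median of 0.21, with 9 higher, against 47.3% of all genes, and UBXN1 as the exception at -0.68. Of these 10, 8 had a whole interval above 0 and 1 below, against 28.5% and 33.6% of all genes. The median of this list, 0.2051, lay just under the upper quartile of all genes, 0.2056.

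The transcription factor NRF1, encoded by NFE2L1, is known to raise proteasome genes when the proteasome is impaired. NFE2L1 had 4803 counts under DMSO and 3306 under L1, a log2 ratio of -0.33 (-0.39 to -0.26). The genes for DDI2, the protease that releases NRF1 from the endoplasmic reticulum, and NGLY1, which removes its sugars, were at 0.21 and 0.34. The small MAF partners were split, with MAFG at 0.45, MAFF at -0.77 and MAFK at -0.76. NFE2L2, the related factor of the antioxidant response, was at 0.52 (0.41 to 0.62). The list of 7 thus held 4 genes above 0 and 3 below, each with a whole interval on its side. Of all genes, 28.5% had a whole interval above 0 and 33.6% below. RNA levels do not show the processing of NRF1, which takes place on the protein.

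Other large complexes, some of them related to the lid in structure, did not all share the shift. The COP9 signalosome, built on the same plan as the lid, had a median of 0.07 over 10 genes, with 5 on each side of 0. Its COPS8 had 988 counts under DMSO and 1862 under L1, a log2 ratio of 1.13 (1.02 to 1.24), the only gene of these lists at least 2-fold apart, and COPS2 was the lowest at -0.42. The translation factor eIF3, also related to the lid, had a median of -0.05 over 13 genes, with 5 higher and 8 lower, from -0.29 for EIF3D to 0.28 for EIF3B. The chaperonin CCT, a ring-shaped folding machine unrelated to the proteasome, had a median of 0.20 over 8 genes, from -0.10 for CCT6A, the one below 0, to 0.38 for CCT2. The whole interval was above 0 for 5 COP9 genes, 4 eIF3 genes and 7 CCT genes, against 28.5% of all genes. It was below 0 for 3, 7 and 1 of them, against 33.6%. The 20S core at 0.29 and the 19S particle at 0.44 had higher medians than any of these 3 complexes. These differences between lists were not tested.

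**Figure D4:**
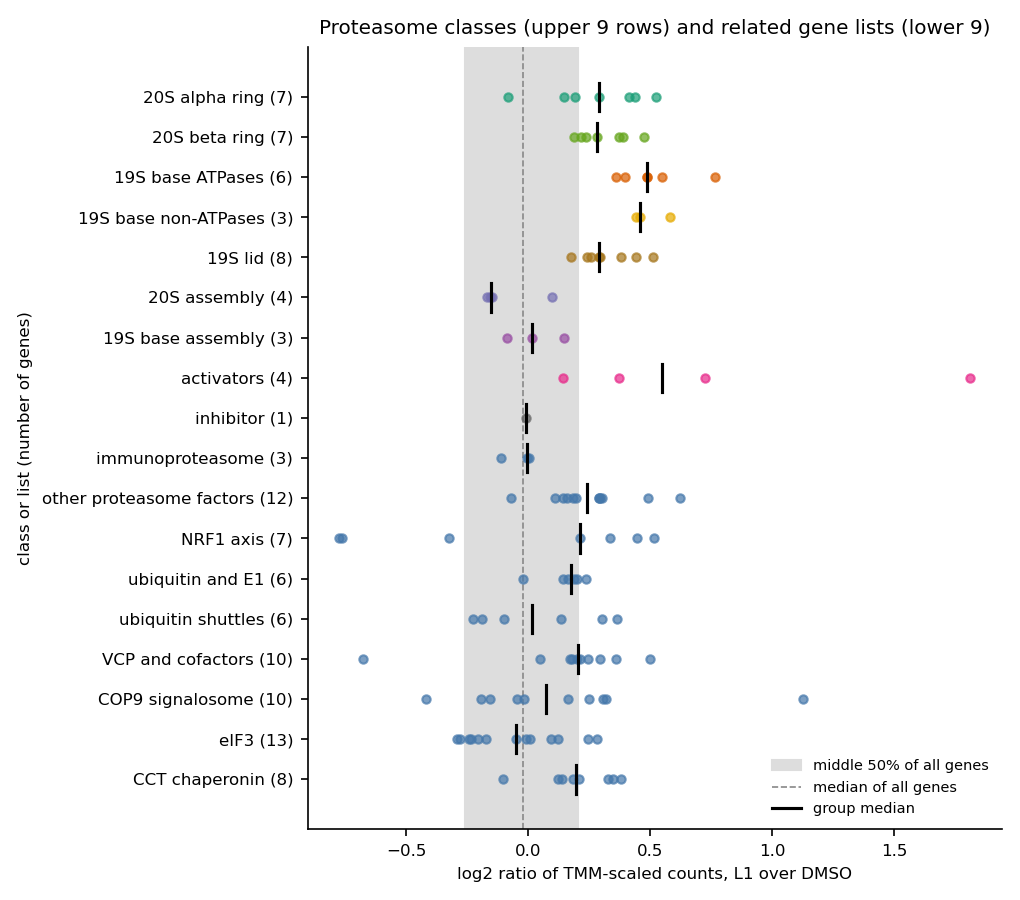
Log2 ratio of TMM-scaled counts, L1 over DMSO (x axis), for each gene of the 9 proteasome classes and the 9 related lists (y axis, number of genes in brackets); points are genes, black bars are group medians, the dashed line is the median of all genes and the grey band is the middle 50% of all genes. The medians of the ring, base and lid classes lie to the right of the band, while those of the assembly factors, PSMF1, the immunoproteasome and eIF3 lie inside it.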

How the data were processed

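HEL cells treated with L1 or DMSO were sequenced as 1 library each with paired reads of 150 bases. The authors aligned reads with HISAT2 2.1.0 and deposited raw counts for 61806 genes and FPKM values for 13924, those over 1 CPM in both libraries. The submitters' processing notes also name fastp 2.0, StringTie and hg38. The counting program and annotation are not given in the sources used here. One line of the FPKM tables that names no gene was dropped.

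Counts were scaled by TMM (edgeR 4.0.16, R 4.3.3; library ratio 1.16) with no prior count, and intervals were computed with Python 3.11.15, scipy 1.17.1, numpy 2.4.6 and pandas 2.3.3. Alternatives were DESeq2 1.42.0 size factors, total counts, upper quartile scaling, FPKM, a prior count of 2, a minimum of 10 counts and other thresholds. Sums with same-strand overlapping genes, leaving out PSME3, and coding-transcript lengths were added after seeing the data. Overlaps and 31-base words came from GENCODE release 29 (GRCh38). Scripts were tested on simulated libraries. Proteasome genes were given with counts, FPKM and interval where they were among the 3 highest or lowest, catalytic, or the extremes of their class, and other genes by ratio. From related lists the extremes and members at least 2-fold apart were named, and some others of known role after their values were seen. A few genes of these lists are not reported here. The members, lists and naming were chosen with earlier results of these data known.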

Additional observations from a re-analysis of the deposited data

How the results depend on the processing

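The median log2 ratio of the 43 genes kept its direction under every alternative run. Their summed log2 ratio of 0.36 became 0.41 with total counts, 0.40 with upper quartile scaling, 0.33 with DESeq2 size factors, 0.35 with FPKM and with log2(FPKM + 1), and 0.33 without PSME3. The 36 genes with an interval above 0 became 35 with DESeq2 size factors and 18 when the whole interval had to pass a log2 ratio of 0.32. The 3 with an interval below 0 became 1 with total counts, 1 with upper quartile scaling, 4 with DESeq2 size factors and 0 past -0.32. Interval counts were not run on FPKM or with a prior count. Total counts moved the median of all genes by 0.05, and there the eIF3 list and EIF3I crossed 0, both to 0.0001. Genes at least 2-fold higher made up 2.92% of all genes, 7.12% with a minimum of 10 counts and 12.9% with none, and those at least 2-fold lower 2.59%, 4.83% and 6.59%. No paired analysis was possible because each group has 1 library. The intervals cover counting error only, and the spread between cultures was not measured.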
